A study of Mus musculus with 6 samples.

Results

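Collagens and matricellular proteins were examined in MLE15 cells with reduced Nkx2-1. The members are genes with a collagen symbol (Col followed by a number, a and a number), the 4 thrombospondins, the lysyl oxidases Lox and Loxl1 to Loxl4, the glycoproteins Fn1, Tgfbi, Sparc, Sparcl1, Tnc, Postn, Vtn and Spp1, and the elastic fibre genes Eln, Fbn1, Fbn2, Fbln1, Fbln2 and Fbln5. A gene was read from the transcript cluster (the set of probes that stands for a gene) with 1 symbol and the highest mean over the arrays. This gave 64 genes of 19938, of which 44 were collagens. Spp1, Fbn1 and Loxl2 were not analysed here, because no transcript cluster carried their symbol alone, and neither was the collagen gene Col21a1.

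MLE15 is a lung epithelial cell line from transgenic mice in which the human surfactant protein C promoter drives simian virus large T antigen, so it is a tumor-derived line. Both groups were lentivirus-transduced and selected with puromycin. The Nkx2-1-shRNA group carried a mix of 3 shRNAs in the pLKO.1 vector and the non-silencing control group the empty pLKO.1 vector. Each group had 3 independently transduced lines with 1 Affymetrix Mouse Gene 1.0 ST array per line. The labels give 48 h for every sample, whereas the methods describe stable lines. Values are on the log2 scale, and a gene "passed the test", or is called higher or lower in the Nkx2-1-shRNA lines, at a limma adjusted p (Benjamini-Hochberg) under 0.05 over all 35557 transcript clusters.

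Collagens are triple-helical proteins of the extracellular matrix. Fibrillar collagens bear tension in the interstitium, type IV collagens form the network of basement membranes, and other types anchor or decorate these structures. Matricellular proteins such as thrombospondins, tenascin C and SPARC are secreted into the matrix, where they act on cell adhesion, proteases and growth factors more than they carry load. In the lung much of the interstitial collagen and elastin comes from fibroblasts, while the epithelium contributes to its basement membrane.

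The regions upstream of the start site are shown for 4 members, 2 that were higher (Tgfbi and Tnc) and 2 that were lower (Thbs2 and Fbln5), as the largest changes in each direction with an entry in the promoter table. They are the 250 bases before the start of each gene in RefSeq, build GRCm38.p6, written 5′ to 3′ on the strand of the gene. Capitals mark CAAG or CTTG, the core to which NKX2-1, a homeodomain transcription factor of lung epithelium, binds, read on both strands.
Tgfbi, chr13:56609336-56609585, plus strand: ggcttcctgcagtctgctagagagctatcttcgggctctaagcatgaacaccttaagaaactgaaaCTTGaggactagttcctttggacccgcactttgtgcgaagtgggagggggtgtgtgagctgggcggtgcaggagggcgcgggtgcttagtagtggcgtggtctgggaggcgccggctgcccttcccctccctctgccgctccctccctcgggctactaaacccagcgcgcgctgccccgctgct
Tnc, chr4:64047016-64047265, minus strand: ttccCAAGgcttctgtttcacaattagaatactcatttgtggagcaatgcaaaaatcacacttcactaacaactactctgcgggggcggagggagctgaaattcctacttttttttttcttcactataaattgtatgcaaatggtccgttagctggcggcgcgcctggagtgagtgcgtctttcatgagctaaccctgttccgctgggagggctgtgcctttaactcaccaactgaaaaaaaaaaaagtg
Thbs2, chr17:14694263-14694512, minus strand: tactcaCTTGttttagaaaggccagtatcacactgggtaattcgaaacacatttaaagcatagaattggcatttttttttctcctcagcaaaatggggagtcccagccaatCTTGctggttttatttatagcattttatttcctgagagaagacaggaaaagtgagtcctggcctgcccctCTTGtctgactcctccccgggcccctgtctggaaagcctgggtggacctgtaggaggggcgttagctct
Fbln5, chr12:101819120-101819369, minus strand: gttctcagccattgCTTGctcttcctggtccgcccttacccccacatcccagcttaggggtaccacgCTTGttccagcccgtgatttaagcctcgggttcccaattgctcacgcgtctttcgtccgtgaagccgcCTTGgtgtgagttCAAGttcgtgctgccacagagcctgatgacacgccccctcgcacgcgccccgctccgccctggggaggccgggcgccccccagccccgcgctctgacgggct

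The upstream region of Tgfbi held 1 match, that of Tnc 1, that of Thbs2 3 and that of Fbln5 4. The median over all regions of this length was 2. Of the 7 higher members with an entry, Col18a1 and Loxl4 held 3 matches each, as Thbs2 did, and Col4a2 held 0. The median was 1 for the higher and 3 for the 3 lower members, a difference that was not tested. The core is short and common. It occurred in 23448 of 27025 regions of this length, or 86.8%, and in 44 of the 47 members with an entry. It was found in 6 of 7 higher members, in 3 of 3 lower members and in 35 of 37 members that did not pass the test. The longer AP-1 motif TGAGTCA, or TGACTCA on the other strand, occurred in 4.43% of all regions and in 1 of the 47 members, and in none of the 10 called members with an entry. The GC content of the 4 regions printed was 62.4% for Tgfbi, 44.8% for Tnc, 46.8% for Thbs2 and 65.2% for Fbln5. A match says only that these letters are present.

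Nkx2-1 itself had log2 values of 7.91, 7.98 and 7.83 with Nkx2-1-shRNA and 8.61, 8.61 and 8.59 with the empty vector. The knockdown left 61.8% of the control level, a log2 change of −0.69 ± 0.076 (SE, n = 3 per group, limma adjusted p = 0.00155). The exact two-sided permutation test gave p = 0.1, the smallest that 3 against 3 lines allow. Arrays of a group correlated at 0.991 to 0.994 across transcript clusters and arrays of different groups at 0.979 to 0.983. Array medians lay between 5.10 and 5.14 in the Nkx2-1-shRNA lines and between 5.18 and 5.21 in the control lines. Repeating the quantile normalization moved the median log2 change of all transcript clusters from −0.029 to 0.012, and median centring moved it to 0.051.

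Of the 64 members 14 passed the test, 9 higher and 5 lower in the Nkx2-1-shRNA lines. The higher genes were Tgfbi, Thbs1, Fn1, Tnc, Loxl4, Fbln2, Col18a1, Col8a1 and Col4a2. The lower genes were Thbs2, Fbln5, Fbn2, Col12a1 and Thbs3. The 21.9% of members that passed stood against 16.8% of all transcript clusters (7.61% higher and 9.24% lower) and 20.5% of genes read from 1 transcript cluster each, so the share of the members as a whole was close to the background. Among genes above the background limit of the array in either group, 29.2% passed. At the study's stricter threshold, an adjusted p under 0.0005 with a log2 change beyond 0.6, Tgfbi and Thbs1 passed in the higher direction and no member in the lower, against 1.26% of all transcript clusters. Of these calls 0 remained without Nkx2-1-shRNA line 2 or control line 3, and 1 without Nkx2-1-shRNA line 1 or 3 or control line 2. A test for unequal variances, which has less power with 3 lines per group, gave 4 higher and 3 lower members at an adjusted p under 0.05.

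The calls fell unevenly over the members. Of the 44 collagens 3 were higher, 1 was lower and 40 did not pass the test. Of the other 20 members 6 were higher, 4 were lower and 10 did not pass. The share that passed was 9.09% of collagens and 50% of the others, beside 20.5% of all genes. The median log2 change was 0.045 for all members, 0.048 for collagens and −0.016 for the others, beside −0.0070 for all genes. The groups did not overlap in 24 of the 64 members, in 10 collagens and 14 others, whereas they did not overlap in 34.9% of all transcript clusters. The difference between collagens and the other members was not tested, and the members were chosen with earlier results of these data known.

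**Figure D1:**
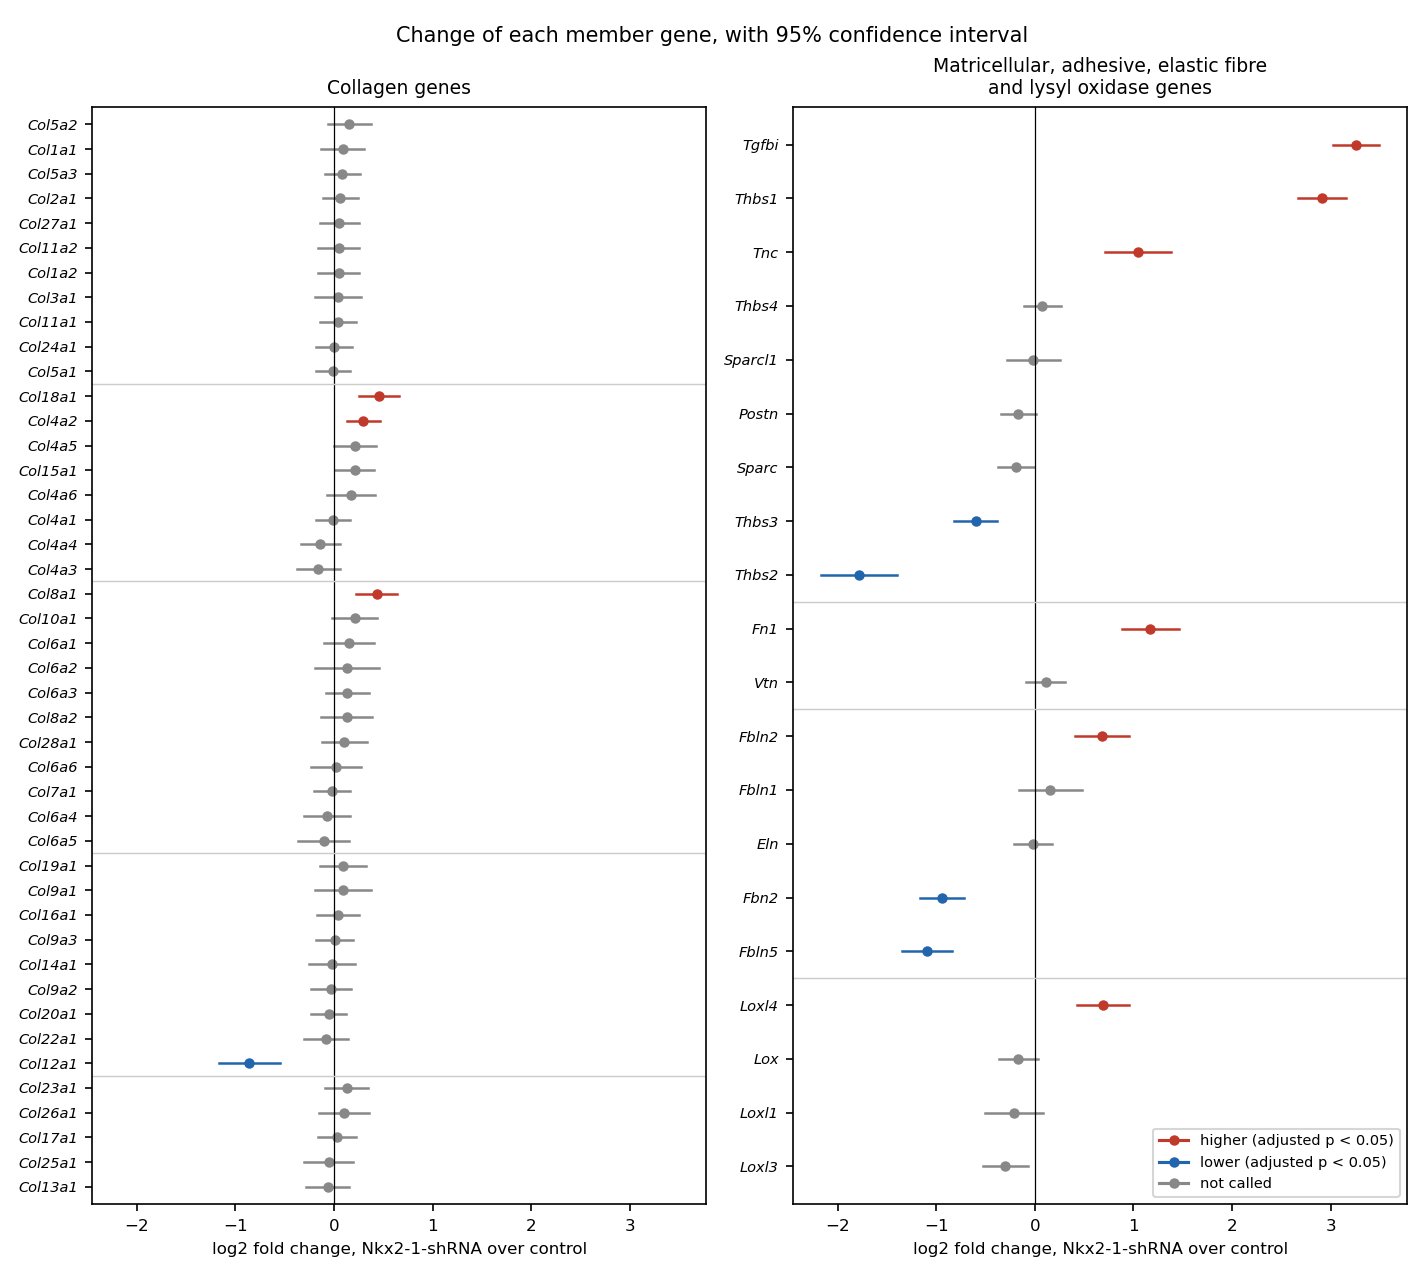
Log2 fold change (Nkx2-1-shRNA over control, n = 3 lines each) of every member on the horizontal axis, collagens and other members in separate panels, with bars for the 95% confidence interval and colors for the call. Most collagens lie close to 0, and the widest changes are those of Tgfbi (3.26), Thbs1 (2.91) and Thbs2 (−1.79) among the other members.

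Odorant, vomeronasal and taste receptor genes, which serve the sensory epithelia, set the background: 95% of their 1248 transcript clusters lay below a log2 value of 4.35. The control mean exceeded it for 56 members and the Nkx2-1-shRNA mean for 55. Col5a2, Col10a1, Col19a1, Sparcl1, Postn, Vtn and Lox were below it in both groups. Postn, the fibroblast-derived periostin, had means of 2.94 in control and 2.77 in Nkx2-1-shRNA lines. Lox, the main lysyl oxidase, had 3.01 and 2.84. For these 7 genes a change would have been hard to see on the array. The limit is a lenient one, since 13568 of the 19938 genes exceeded it in a group. The median of the collagens on an array was 5.26 to 5.41, near the median of all transcript clusters, 5.10 to 5.21. Exceeding the limit therefore does not show that a gene was expressed.

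**Figure D2:**
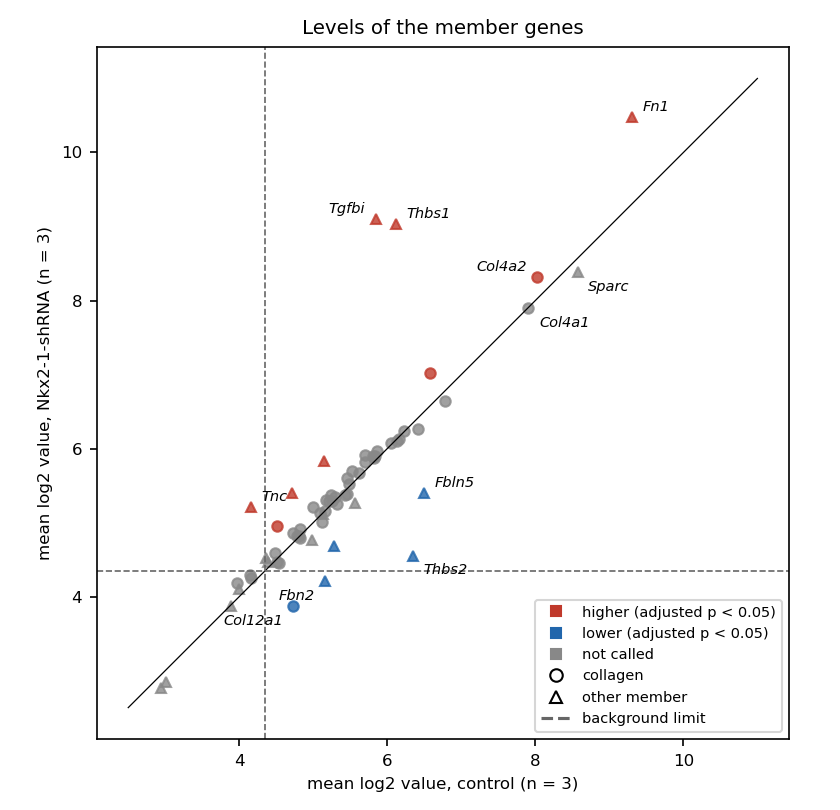
Mean log2 value of each member in the control lines (horizontal axis) and in the Nkx2-1-shRNA lines (vertical axis), n = 3 lines per group, with collagens and other members as different symbols, colors for the call and dashed lines at the background limit of 4.35. Most members lie on the diagonal, Tgfbi and Thbs1 far above it and Thbs2 and Fbln5 below it.

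Among the matricellular proteins 3 of 9 were higher, 2 were lower and 4 did not pass the test. Tgfbi and Thbs1 had the largest rises of the members and Thbs2 the largest fall. Tgfbi encodes a secreted protein that is induced by TGF-beta and binds collagens and integrins. Its log2 values were 9.18, 9.18 and 8.95 in the knockdown lines and 5.94, 5.82 and 5.77 in the controls, so every knockdown line was far above every control line. The mean rose from 5.84 ± 0.090 to 9.10 ± 0.13 (SD, n = 3), a log2 change of 3.26 ± 0.099 (SE, 95% confidence interval 3.02 to 3.49) or 9.57-fold, with an adjusted p of 2.8e-05.

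Thbs1 encodes thrombospondin 1, a trimeric glycoprotein that activates latent TGF-beta and inhibits angiogenesis. It had log2 values of 9.14, 8.86 and 9.10 with Nkx2-1-shRNA and 6.19, 6.04 and 6.13 with the empty vector. As for Tgfbi, the groups lay far apart. The log2 change was 2.91 ± 0.10 (SE, 95% confidence interval 2.67 to 3.15), or 7.53-fold, with an adjusted p of 4.2e-05.

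Its close relative thrombospondin 2 moved the other way. Thbs2 had log2 values of 4.64, 4.29 and 4.73 in the knockdown lines and 6.62, 6.22 and 6.19 in the controls. The knockdown lines were near the background limit, 1 of them below it. Its log2 value fell by 1.79 ± 0.16 (SE, 95% confidence interval −2.17 to −1.40), to 29.0% of control, with an adjusted p of 0.000744. Ratios against values at the background are compressed on these arrays.

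Tnc encodes tenascin C, a hexameric glycoprotein of developing and injured tissue. It had log2 values of 5.36, 5.20 and 5.06 with Nkx2-1-shRNA and 4.18, 3.91 and 4.39 with the empty vector. The control mean of 4.16 ± 0.24 (SD, n = 3) was below the background limit and the Nkx2-1-shRNA mean of 5.21 ± 0.15 above it. The log2 change was 1.05 ± 0.14 (SE), a ratio of 2.06, with an adjusted p of 0.00376.

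Thbs3, a pentameric thrombospondin, fell by 0.60 on the log2 scale to 66.0% of control, with an adjusted p of 0.00607. Its lines had 4.79, 4.71 and 4.53 under knockdown and 5.28, 5.23 and 5.32 in control, without overlap. Thbs4, the other pentamer among the members, had a log2 change of 0.075 at an adjusted p of 0.609. Sparc, a collagen-binding protein, had log2 values of 8.39, 8.43 and 8.32 in the knockdown lines and 8.51, 8.60 and 8.61 in the controls. The groups were apart, but the log2 change of −0.19 (95% confidence interval −0.37 to −0.011) did not pass the test, with an adjusted p of 0.146. Postn (−0.17) and Sparcl1 (−0.015) did not pass either, both below the background limit.

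**Figure D3:**
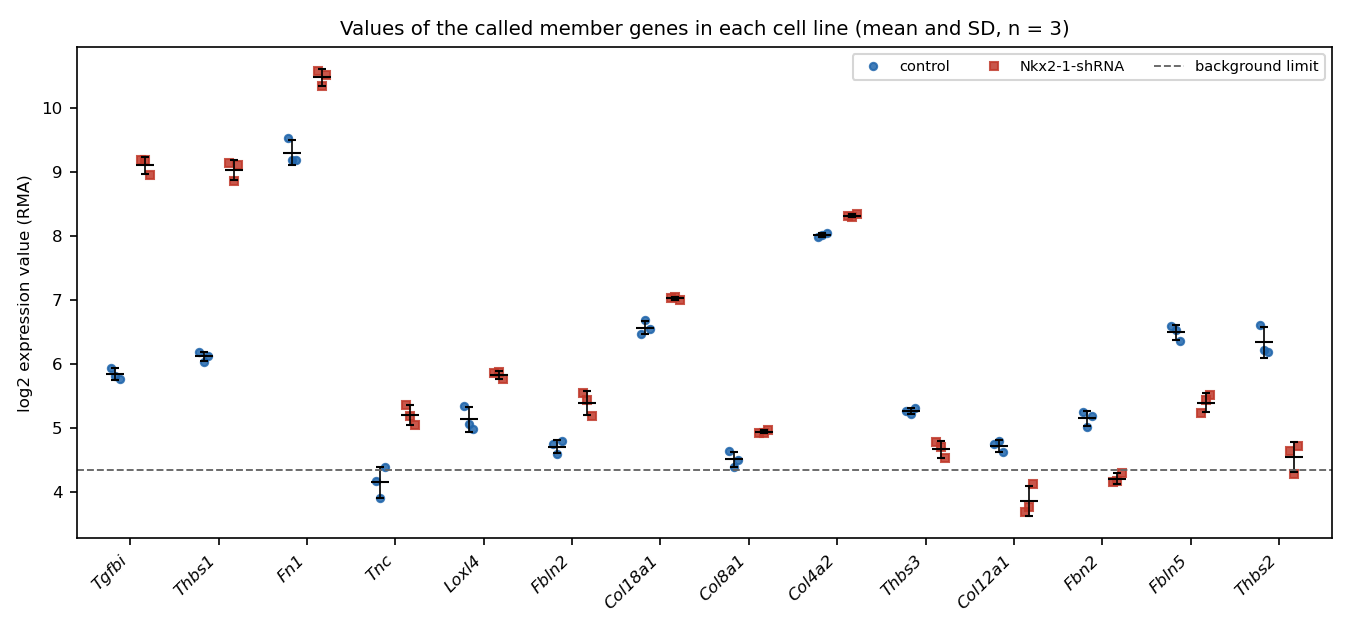
Log2 values of the 14 members that passed the test on each of the 6 arrays (vertical axis), with 3 points per group for each gene and a dashed line at the background limit of 4.35. In each of these genes the Nkx2-1-shRNA and control lines do not overlap.

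Of the adhesive glycoproteins, Fn1 was higher. Fn1 encodes fibronectin, which links collagens to integrins. Its log2 values were 10.58, 10.33 and 10.51 with Nkx2-1-shRNA and 9.52, 9.19 and 9.19 with the empty vector, with a clear gap between groups. The mean rose from 9.30 ± 0.19 to 10.47 ± 0.13 (SD, n = 3), a log2 change of 1.17 ± 0.12 (SE, 95% confidence interval 0.88 to 1.46) or 2.25-fold, with an adjusted p of 0.00130. Vtn, which encodes vitronectin, had a log2 change of 0.11 at an adjusted p of 0.463, with both means under the background limit.

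Among the elastic fibre proteins 1 of 5 was higher, 2 were lower and 2 did not pass the test. Fbln5 encodes fibulin 5, which brings tropoelastin and lysyl oxidases together during fibre assembly. It had log2 values of 5.25, 5.44 and 5.52 in the knockdown lines and 6.59, 6.54 and 6.36 in the controls. All knockdown lines were below all control lines. Its log2 value fell by 1.096 ± 0.11 (SE, 95% confidence interval −1.35 to −0.84), to 46.8% of control, with an adjusted p of 0.00101.

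Fbn2, the gene of the microfibril protein fibrillin 2, had log2 values of 4.16, 4.17 and 4.31 with Nkx2-1-shRNA and 5.25, 5.02 and 5.19 with the empty vector. The Nkx2-1-shRNA mean of 4.21 was below the background limit. The log2 value fell by 0.94 ± 0.094 (SE), to 52.1% of control, with an adjusted p of 0.00109. Fbln2, the gene of fibulin 2, was higher by a log2 change of 0.68 ± 0.12 (SE) or 1.60-fold, with an adjusted p of 0.00908. Its lines had 5.55, 5.45 and 5.20 under knockdown and 4.76, 4.59 and 4.80 in control. Elastin itself did not pass the test. Eln had a log2 change of −0.017 at an adjusted p of 0.926, and its sign turned after repeated quantile normalization (0.064), after median centring (0.063) and without Nkx2-1-shRNA line 1 or control line 3. Fbln1, the gene of fibulin 1, had a log2 change of 0.15 at an adjusted p of 0.526.

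The lysyl oxidases cross-link collagen and elastin. Loxl4 was higher, with log2 values of 5.86, 5.87 and 5.76 in the knockdown lines and 5.35, 5.07 and 4.99 in the controls. Its log2 change was 0.69 ± 0.11 (SE) or 1.62-fold, with an adjusted p of 0.00730. A further transcript cluster of Loxl4 gave a log2 change of 0.54 and an adjusted p of 0.0219. The remaining members of the family had negative log2 changes that did not pass the test, of −0.17 for Lox (adjusted p = 0.236), −0.21 for Loxl1 (adjusted p = 0.318) and −0.30 for Loxl3 (adjusted p = 0.0780). Loxl3 had the lowest adjusted p of the members that did not pass.

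The fibrillar collagens did not pass the test in either direction. All 11 lay between a log2 change of −0.011 and 0.16, with a median of 0.049. Their control means ran from 4.14 to 5.83, and whether they were expressed in these lines was not tested. Col1a1, a chain of type I collagen, had log2 values of 6.03, 5.88 and 5.79 with Nkx2-1-shRNA and 5.80, 5.74 and 5.90 with the empty vector. The groups overlapped, and the log2 change was 0.088 (95% confidence interval −0.13 to 0.31, adjusted p = 0.607). Its partner chain Col1a2 had a log2 change of 0.047 and Col3a1, the chain of type III collagen, 0.043.

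The basement membrane collagens include type IV and the multiplexins, whose C-terminal fragments such as endostatin are released by proteases. Of these 8 genes Col18a1 and Col4a2 were higher and 6 did not pass the test, with a median log2 change of 0.19. Col18a1 had log2 values of 7.03, 7.06 and 6.999 in the knockdown lines and 6.48, 6.69 and 6.55 in the controls. The groups were apart, with a log2 change of 0.45 ± 0.084 (SE, 95% confidence interval 0.26 to 0.65) or 1.37-fold and an adjusted p of 0.0124. Without Nkx2-1-shRNA line 1 the adjusted p was 0.0517. Col15a1, the other multiplexin, had a log2 change of 0.21 and an adjusted p of 0.147.

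Col4a2 rose slightly and Col4a1, its partner in the main type IV trimer, did not pass the test. Col4a2 had log2 values of 8.32, 8.30 and 8.34 with Nkx2-1-shRNA and 7.99, 8.02 and 8.05 with the empty vector, without overlap. Its log2 change was 0.30 ± 0.070 (SE, 95% confidence interval 0.13 to 0.46) or 1.23-fold, with an adjusted p of 0.0304. Col4a1 had 7.95, 7.87 and 7.89 in the knockdown lines and 7.90, 7.89 and 7.94 in the controls, with a log2 change of −0.0073 (95% confidence interval −0.18 to 0.16, adjusted p = 0.964) whose sign turned after median centring (0.073). The call of Col4a2 is a weak one. With fewer lines it held only without control line 3, and leaving out any of the other 5 lines gave adjusted p values of 0.0790 to 0.105.

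The minor type IV chains did not pass the test. Col4a3 had a log2 change of −0.16 (adjusted p = 0.316) and Col4a4 of −0.14 (adjusted p = 0.346), while Col4a5 had 0.22 (adjusted p = 0.164) and Col4a6 0.18 (adjusted p = 0.316). In the promoter table the 300-base windows of Col4a1 and Col4a2, which lie head to head on opposite strands, shared 78 bases.

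Of the 11 beaded, anchoring and network-forming collagens Col8a1 was higher and 10 did not pass the test, with a median log2 change of 0.13. Col8a1 encodes a chain of the short-chain network collagen VIII. It had log2 values of 4.93, 4.93 and 4.98 with Nkx2-1-shRNA and 4.64, 4.40 and 4.50 with the empty vector. The groups were apart, with a log2 change of 0.43 ± 0.087 (SE, 95% confidence interval 0.23 to 0.64) or 1.35-fold and an adjusted p of 0.0170. Leaving out any Nkx2-1-shRNA line or control line 2 ended this call, with adjusted p values of 0.0509 to 0.0613. Col6a1, a chain of beaded filament collagen VI, had a log2 change of 0.15 (adjusted p = 0.414). Col7a1, which forms the anchoring fibrils below epithelia, had −0.021 (adjusted p = 0.896), a sign that turned after repeated quantile normalization (0.033) and median centring (0.059).

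The FACIT collagens, which sit on the surface of fibrils, held the 1 collagen that was lower. Col12a1 had log2 values of 3.69, 3.78 and 4.13 in the knockdown lines and 4.76, 4.80 and 4.63 in the controls. The knockdown lines were all below the background limit of 4.35 and the control lines all above it. Its log2 value fell by 0.86 ± 0.13 (SE, 95% confidence interval −1.17 to −0.55), to 55.1% of control, with an adjusted p of 0.00579. The other 8 measured FACIT collagens and the 5 transmembrane and other collagens did not pass the test. Among them Col17a1, a hemidesmosomal collagen of epithelia, had a log2 change of 0.031 (adjusted p = 0.851) and Col9a3, a chain of type IX collagen, of 0.0073 (adjusted p = 0.968).

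The 50 members that did not pass the test had log2 changes close to 0. They ran from −0.30 to 0.22, and 49 of them were under 0.25 in size. The half-width of their 95% confidence intervals was 0.17 to 0.32, with a median of 0.21. For 48 of the 50 the interval lay within 0.5 on either side of 0, and for all 50 within 1. Changes smaller than these intervals were not detectable with 3 lines per group. Without adjustment 18 members had a limma p under 0.05, 4 of which did not pass after adjustment. The share of all transcript clusters under this unadjusted limit was not taken, so the count cannot be set against a background.

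Related members were set against each other within each array, in 8 pairs. The log2 difference of a pair on 1 array compares different probes, so only its shift between groups was read. The difference of Thbs1 over Thbs2 was 4.50, 4.56 and 4.38 with Nkx2-1-shRNA and −0.42, −0.18 and −0.056 with the empty vector, a shift of 4.70 ± 0.12 (SE). That of Fbln2 over Fbln5 shifted by 1.78 ± 0.22 (SE). That of Col4a2 over Col4a1 was 0.37, 0.44 and 0.45 in the knockdown lines and 0.090, 0.13 and 0.12 in the controls, a shift of 0.30 ± 0.028 (SE).

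In these 3 pairs the groups did not overlap. The exact two-sided permutation test gave p = 0.1 for each, the smallest possible with 3 lines per group, and 0.267 after adjustment over the 8 pairs. These pairs were chosen after their values were seen. The other 5 pairs overlapped, with shifts of 0.039 for Col4a5 over Col4a6, −0.019 for Col4a3 over Col4a4, 0.041 for Col1a1 over Col1a2, 0.11 for Col5a2 over Col3a1 and 0.017 for Col6a1 over Col6a2. Their exact permutation p ran from 0.4 to 0.9.

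**Figure D4:**
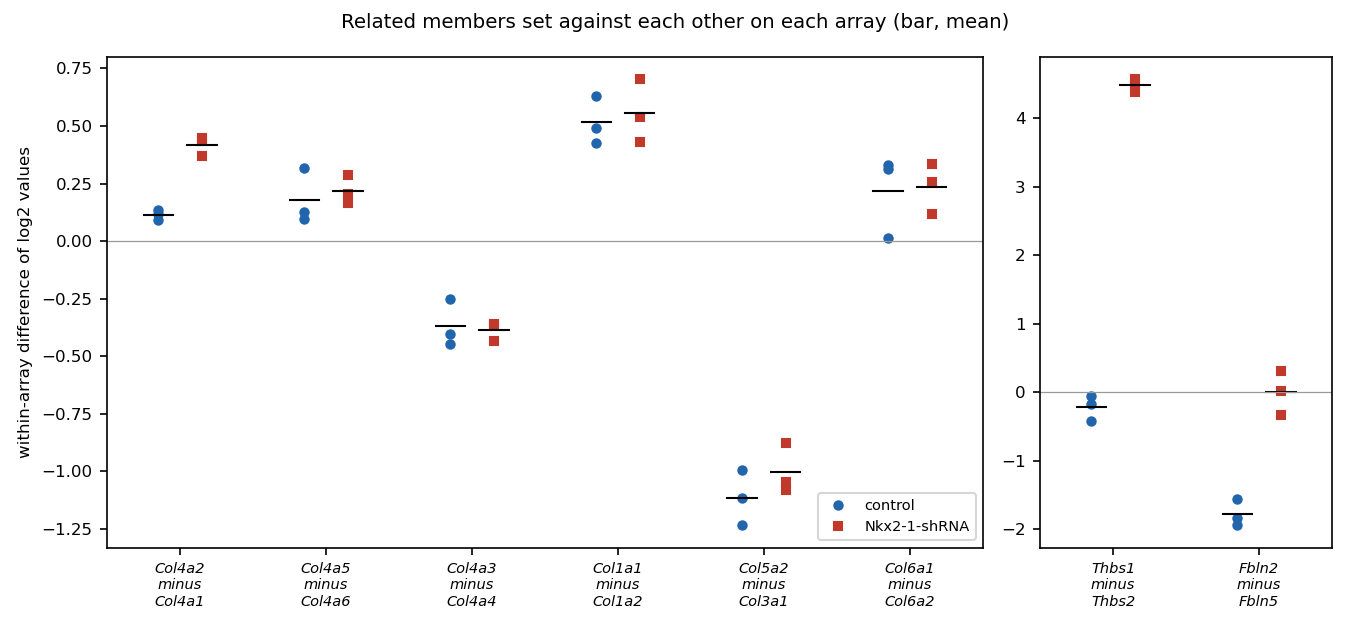
Difference of log2 values between the genes of each pair of related members within an array (vertical axis), 1 point per array and a bar for the mean of each group of 3 lines. Thbs1 over Thbs2, Fbln2 over Fbln5 and Col4a2 over Col4a1 differ between Nkx2-1-shRNA and control lines without overlap, and the other 5 pairs overlap.

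Collagen chains are hydroxylated, glycosylated, folded and trimmed by a set of enzymes and chaperones before they form fibrils. Of 23 such genes measured 4 were higher, 6 were lower and 13 did not pass the test, with a median log2 change of −0.019. The 43.5% that passed stood against 20.5% of all genes and 29.2% of genes above the background limit. This list and the next ones were chosen with earlier results of these data known, and the difference in share was not tested. P4ha2, a catalytic subunit of collagen prolyl 4-hydroxylase, had log2 values of 8.51, 8.16 and 8.28 with Nkx2-1-shRNA and 6.88, 6.73 and 6.58 with the empty vector. The groups were far apart, with a log2 change of 1.59 ± 0.12 (SE) or 3.00-fold and an adjusted p of 4.3e-04. Pcolce, an enhancer of procollagen C-proteinase, had 8.83, 8.91 and 8.94 in the knockdown lines and 7.36, 7.41 and 7.23 in the controls. It rose by a log2 change of 1.56 ± 0.085 (SE) or 2.95-fold, with an adjusted p of 1.1e-04.

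P3h2, a prolyl 3-hydroxylase that acts on type IV collagen, rose by 0.76 on the log2 scale (adjusted p = 0.0218), and P4ha1, a further 4-hydroxylase subunit, by 0.53 (adjusted p = 0.0188). By the methods' t-test both calls were lost, with adjusted p values of 0.0985 for P3h2 and 0.0658 for P4ha1. That of P3h2 was also lost without Nkx2-1-shRNA line 1 or 3 or control line 2 or 3. That of P4ha1 was lost without Nkx2-1-shRNA line 1 or 2. P4ha3, the third such subunit, fell by 0.58 on the log2 scale (adjusted p = 0.00251). P3h1 fell by 0.55 (adjusted p = 0.00719), and its partner Crtap by 0.34 (adjusted p = 0.0472). Bmp1, the procollagen C-proteinase, fell by 0.37 (adjusted p = 0.0158), Plod3, a lysyl hydroxylase, by 0.36 (adjusted p = 0.0397) and Mia3, which helps to export procollagen, by 0.41 (adjusted p = 0.0414). Of the lower calls of this list, those of P4ha3, P3h1 and Bmp1 held after median centring and after repeated quantile normalization. That of Bmp1 was lost on leaving out any Nkx2-1-shRNA line or control line 2, with limma adjusted p values of 0.0524 to 0.0663. Those of Crtap and Mia3 were lost after both scalings. That of Plod3 was lost after median centring (adjusted p = 0.110) and held after repeated quantile normalization (adjusted p = 0.0360). The calls of Crtap, Plod3 and Mia3 were also lost on leaving out most single lines. After median centring 4 genes were higher and 3 lower, those of Crtap, Plod3 and Mia3 being lost, and after repeated quantile normalization 5 were higher and 4 lower. With any 1 line left out 2 or 3 were lower, and without Nkx2-1-shRNA line 1 only 2 were higher, P4ha2 and Pcolce.

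Cells bind these proteins through integrins, discoidin domain receptors, scavenger receptors and syndecans. Of 21 receptor genes 8 were higher, 3 were lower and 10 did not pass the test, with a median log2 change of 0.13. The share that passed was 52.4%, beside 20.5% of all genes and 29.2% of genes above the background limit. This difference was not tested either. Ddr2, a receptor tyrosine kinase for fibrillar collagen, had log2 values of 9.22, 9.24 and 9.43 with Nkx2-1-shRNA and 7.68, 7.37 and 7.32 with the empty vector. Its log2 change was 1.84 ± 0.12 (SE) or 3.58-fold, with an adjusted p of 2.4e-04. Cd36, a scavenger receptor that binds thrombospondins and collagens, had 4.38, 4.07 and 4.31 in the knockdown lines and 7.12, 6.87 and 6.52 in the controls. Its log2 value fell by 2.58 ± 0.17 (SE) and reached a mean of 4.26, under the background limit, with an adjusted p of 2.2e-04.

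Of the 4 collagen-binding integrin alpha subunits 1 was lower, 1 was higher and 2 did not pass the test. Itga1 fell by 1.59 (adjusted p = 0.00202), from a log2 mean of 5.32 to one of 3.73 that lay under the background limit. Itga2 rose by 0.90 (adjusted p = 0.000799). Itga10 had a log2 change of −0.12 (adjusted p = 0.444) and Itga11, under the background limit in both groups, of 0.13 (adjusted p = 0.472). Itgb1, the common partner subunit, rose by 0.72 (adjusted p = 0.00135). Sdc1, the main syndecan of epithelia, rose by 0.95 (adjusted p = 0.000918), and Cd47, a thrombospondin 1 receptor, by 0.95 (adjusted p = 0.0109). Ddr1, Itgb5 and Itgb6 rose by 0.60, 0.59 and 0.60, and Itgav fell by 0.43 (adjusted p = 0.0198), a call lost on leaving out any line but control line 3.

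Of 26 other matricellular and elastic fibre genes 3 were higher, none was lower and 23 did not pass the test, with a median log2 change of 0.0060. The 11.5% that passed was below the 20.5% of all genes. The 3 higher genes were Ltbp1, Ltbp3 and Ltbp4, of the latent TGF-beta binding protein family. The other gene of this family in the list, Ltbp2, had a log2 change of −0.047 (adjusted p = 0.791). Ltbp1 had log2 values of 6.88, 6.66 and 6.65 with Nkx2-1-shRNA and 5.04, 4.90 and 4.69 with the empty vector, a log2 change of 1.85 ± 0.12 (SE) or 3.61-fold with an adjusted p of 2.1e-04. Ltbp3 rose by 0.80 (adjusted p = 0.00128) and Ltbp4 by 0.69 (adjusted p = 0.00243). Ccn2 had a log2 change of 0.38 (adjusted p = 0.159) and Ccn1 of 0.34 (adjusted p = 0.0847). After median centring 5 genes of this list were higher.

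**Figure D5:**
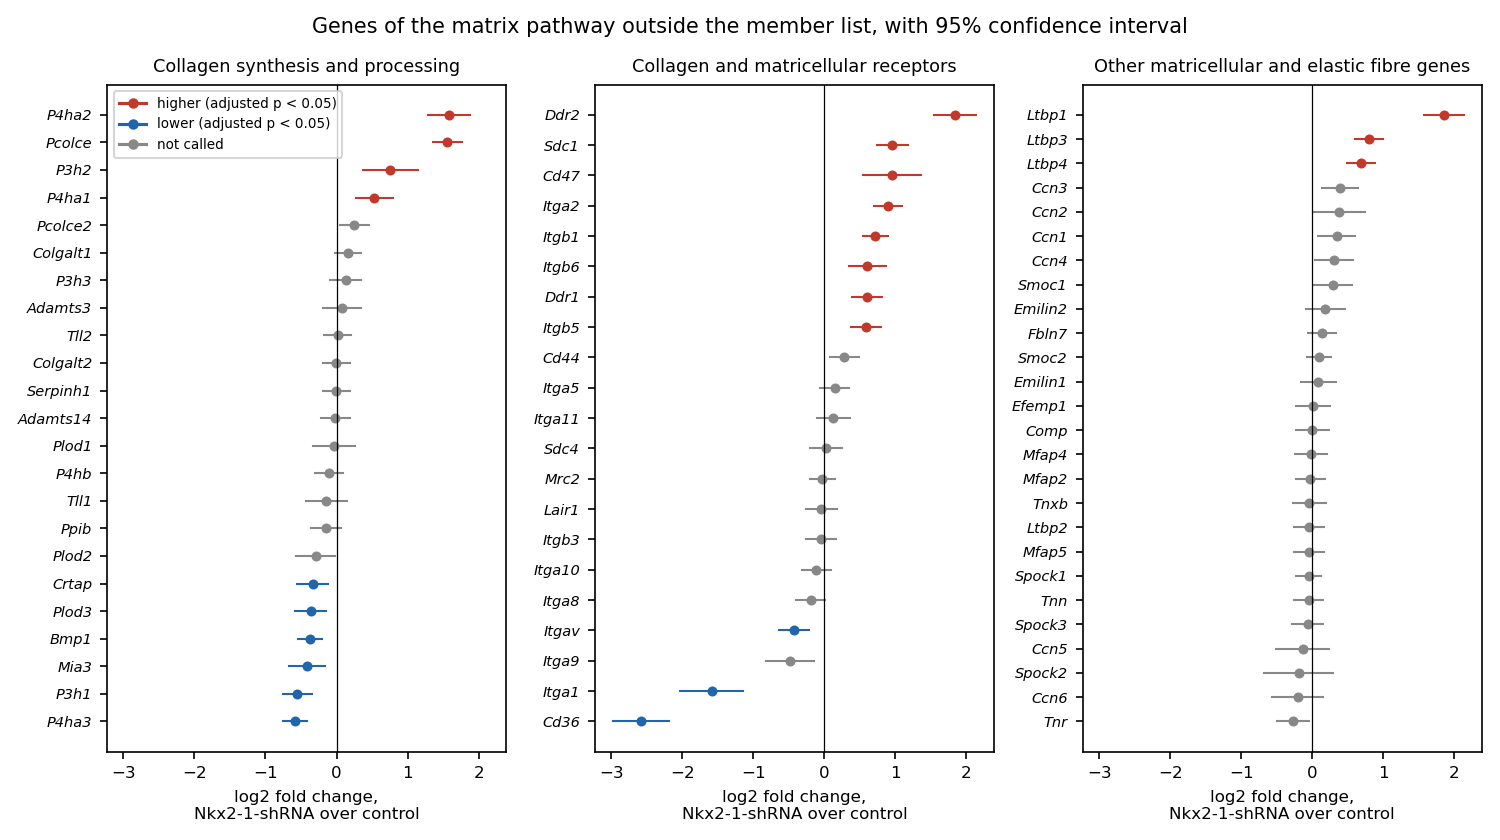
Log2 fold change (Nkx2-1-shRNA over control, n = 3 lines each) of the genes of collagen synthesis, of the receptors and of other matricellular and elastic fibre genes, 1 panel per list, with bars for the 95% confidence interval and colors for the call. Ddr2 (1.84), Ltbp1 (1.85), P4ha2 (1.59) and Pcolce (1.56) lie farthest to the right and Cd36 (−2.58) farthest to the left.

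Many of these genes are also products of fibroblasts, so 12 fibroblast and smooth muscle markers were read on the same arrays. The median of the 12 was 4.25 to 4.51 in the control lines and 4.36 to 4.42 in the Nkx2-1-shRNA lines, close to the background limit. Dcn, the gene of decorin, had a mean of 3.17 in control and 3.20 in Nkx2-1-shRNA lines and Lum, the gene of lumican, 2.41 in both, all below that limit, as were Pdgfrb and Tcf21 in both groups. The other 8 exceeded the limit in at least 1 group, among them Thy1 (4.85 in control and 4.98 in Nkx2-1-shRNA lines), Pdgfra (4.68 and 4.55), Cspg4 (4.77 and 4.54), Myh11 (4.64 and 4.64) and Acta2 (4.45 and 4.78). Des, the gene of desmin, rose by 0.61 on the log2 scale (adjusted p = 0.0193) and Cnn1, the gene of calponin, by 0.26 (adjusted p = 0.0497). The other 10 did not pass the test, and the part of such cells in the results was not tested. Of 8 epithelial markers Cldn4 (1.74), Ocln (0.74), Krt7 (0.70) and Krt18 (0.44) were higher and 4 did not pass, among them Cdh1, the gene of the epithelial cadherin, with means of 11.02 and 10.99. Of 8 type II cell markers Sftpc (−3.65, reaching 4.08, under the background limit), Sftpa1 (−0.41) and Abca3 (−0.40) were lower, Napsa (0.58) and Sftpd (0.44) were higher and 3 did not pass. Of 6 endothelial markers Tek was lower (from 5.77 to 3.77) and Vwf higher (from 5.84 to 6.26), and of 6 leukocyte markers 0 passed. In bulk RNA fewer cells of a kind and less RNA per cell cannot be told apart.

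The 14 called members lie on 14 different chromosomes. Beside each, the 20 nearest genes that exceeded the background limit in either group and were not members were read, 10 on either side. They were read after the values had been seen. Fbln5 lies on chromosome 12, as Nkx2-1 does, and of its 20 neighbours 8 were lower and 0 higher, with a median log2 change of −0.16. Of the neighbours of Fn1 8 were higher and 1 was lower (median 0.22), and of those of Fbln2 7 were higher and 1 was lower (median 0.18). The neighbours of Tnc had 5 higher and 0 lower (median 0.19). Around Tgfbi 0 were higher and 5 lower (median −0.21), against its own rise of 3.26, and around Thbs1 2 were higher and 3 lower. Around Col18a1, itself higher, 1 was higher and 4 lower, and around Fbn2, itself lower, 5 were higher and 2 lower. Col12a1 had 0 higher and 4 lower neighbours, Thbs3 2 and 3, and Thbs2 3 and 3. Col4a2 had 2 and 2, Col8a1 3 and 2, and Loxl4 3 and 1. Among all genes above the background limit 29.2% passed in either direction, so 5 of 20 is not above the background. The share in a single direction was not taken among these genes, so counts in 1 direction have no background beside them. Whether the larger counts, around Fbln5, Fn1 and Fbln2, exceed the background was not tested. The part of the surrounding region in the change of any member was not tested.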

How the data were processed

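RNA of 3 Nkx2-1-shRNA and 3 non-silencing control MLE15 lines was hybridized to 1 array each. The authors processed the arrays in Affymetrix Expression Console 1.1 with RMA, so the deposited table holds log2 values for 35557 transcript clusters, from 0.46 to 13.69. RMA shrinks differences near the background. The genome build of the array annotation is not given in the sources used here. In the annotation 21789 of them had a single symbol, 1621 had several and 12147 were unnamed.

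Groups were compared by limma 3.58.1 (lmFit and eBayes, no block, 4 residual degrees of freedom) in R 4.3.3 over all transcript clusters, with Benjamini-Hochberg adjustment over all of them. Replicates are independently transduced lines of 1 parent line, so p-values measure the spread between these lines. Groups came from the labels, and a shared replicate number was not taken to pair lines. The deviations of same-numbered lines correlated at 0.058, 0.14 and −0.034. Differently numbered lines were not compared, so these values cannot show whether lines were handled in matched batches. Arrays give no counts, so their number limits precision. The test was tried on simulated data. A log2 value of 4.35, under which 95% of 1248 chemosensory receptor transcript clusters lay, was taken as background limit. Symbols that only share the letters of that family were removed from it after the data were seen.

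Members and lists were chosen with earlier results of these data known. Members with an adjusted p under 0.05 and a log2 change of at least 1 were given with all values, other called members by name, and of the rest the best known and most highly expressed, with up to 4 members of each further list. Genes named beyond this rule were chosen after their values were seen, namely the smaller pair partners, Loxl1, Loxl3, Thbs4, Fbln1, Postn, Sparcl1, Col15a1, the marker genes and the remaining genes of the further lists, as were the values of all lines for the smaller calls. Pairs and neighbouring genes were also chosen after the data were seen. Alternatives were other tests and priors, array weights, other scalings, filters on transcript clusters, averaging of the transcript clusters of a gene, a replicate block and each line left out. Upstream sequences are from RefSeq (GRCm38.p6), matched by symbol for 47 of the 64 members.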

Additional observations from a re-analysis of the deposited data

How the results depend on the processing

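The direction held for every called member in all alternatives that gave it a value. For most alternatives this was fixed in advance. Other tests, priors, filters and the replicate block reuse the same difference of means. With groups that do not overlap, array weights or a line left out cannot turn a sign. Only the other scalings and the averaging of transcript clusters could have done so. Fbln5, Fbn2, Fn1, Tgfbi, Thbs1 and Thbs2 also passed the test in each (highest adjusted p 0.0444, for Fn1). Over the 26 named members and 17 alternatives 430 values were obtained, 397 with the same direction and side of the threshold, 18 no longer past it and 15 of opposite sign, the last in uncalled genes near 0. The 24 called genes of the 3 further lists lost their calls in 58 of 406 values, and 0 changed sign, which most of these alternatives could not bring about. With the test for unequal variances 4 members were higher and 3 lower, 0 higher at the study's threshold, 1 collagen was higher and 0 lower, 2 synthesis genes were higher and 1 lower, 1 receptor was lower, and Nkx2-1 (−0.69) had an adjusted p of 0.0550. That test ended the calls of Col12a1, Col18a1, Col8a1, Fbln2, Loxl4, Thbs3 and Tnc. By the methods' t-test 9 members were higher and 5 lower, 0 at the study's threshold in the higher direction, and 2 higher and 3 lower synthesis genes, while Cd47 (adjusted p = 0.0675) and Itgb6 (adjusted p = 0.0514) lost their calls and 6 receptors were higher. Without adjustment the t-test called 11 higher and 9 lower members and the test for unequal variances 10 and 7, again without a background share beside them.

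With median centring 3 synthesis genes were lower and 5 other matricellular genes higher. With only 1-symbol transcript clusters 4 members were higher and 4 lower at the study's threshold, and 5 other matricellular genes were higher. Above background 3 were lower at that threshold. Above the median level, where 36 members remained, 3 were lower, 2 at the study's threshold, and 0 collagens were lower. With the replicate block 0 members were higher at the study's threshold, 8 were higher and 5 lower at an adjusted p under 0.05, and the call of Col4a2 was lost. Whether the numbers pair the lines was not settled.

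Leaving out each line in turn gave 6 to 9 higher and 5 to 6 lower members, 0 to 2 higher at the study's threshold, 0 to 3 higher collagens, and 2 to 4 higher and 2 to 3 lower synthesis genes. Without Nkx2-1-shRNA line 1, 0 collagens were higher. Uncalled genes whose sign turned were Col4a1, with 0.0064 (array weights), 0.073 (median centring) and −0.031 to 0.0093 with a line left out, Col7a1, with 0.033 (repeated quantile normalization), 0.059 (median centring) and −0.058 to 0.00053, Eln, with 0.064, 0.063 and −0.067 to 0.029 in the same order, Col9a3, with −0.022 to 0.052 with a line left out, and Col17a1, with −0.019 to 0.076. The cause of these shifts was not tested. With the 90th percentile as background limit 61 members exceeded it in a group, against 57.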

Other observations

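Genes of the lists with more than 1 transcript cluster gave further values. Adamts3, the gene of a procollagen N-proteinase, was covered by 16 transcript clusters, all with positive log2 changes, from 0.047 to 0.55, of which 1 passed the test. Cd47 passed in both of its clusters, with log2 changes of 0.95 and 0.96. The 2 clusters of Col6a5 differed in sign, −0.11 and 0.12, and neither passed. Those of Col6a6 had 0.021 and 0.032.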
